A study of Saccharomyces cerevisiae with 8 samples.

Results

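YHL063 and YHL065 are diploid hybrids of *Saccharomyces cerevisiae* that share a wine/European parent, BC187, and differ in the Malaysian parent. These 2 of the 8 samples in the series were taken from the table of allele-specific expression because they are the hybrids in which the same BC187 allele can be followed next to a different Malaysian genome. YHL063 (UWOPS03.461.4 x BC187, MATa/alpha HO) was set against YHL065 (UWOPS05.217.3 x BC187, MATa/alpha HO). The series surveyed expression in wild Malaysian and wine/European isolates, with 5 homozygous parents and 3 hybrids. Every strain was grown as 1 culture in the rich medium YPD at 30 °C to mid-log phase, between 0.65 and 0.72 OD600, and sequenced as 1 library. The hybrids came from single-cell matings. The third hybrid, YHL058 (UWOPS03.461.4 x RM11-1b, MATa/alpha HO in the labels and with an ho deletion marked by kanMX on one copy in the study's strain list), and the homozygous Malaysian parents UWOPS03.461.4 and UWOPS05.217.3 (each MATa/alpha HO) served only for side-by-side values.

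In a hybrid nucleus, both alleles of a gene meet the same diffusible regulators. A regulator that differs between the Malaysian parents can act on the BC187 allele and on the Malaysian allele alike, which geneticists call a *trans* effect. A difference in the sequence next to a gene acts on its own copy alone, a *cis* effect, and so moves the ratio between the alleles. The BC187 allele is therefore a probe of the rest of the cell, and the allelic ratio is a probe of the gene's own copy. With 1 culture of each hybrid, a difference between cultures that has nothing to do with the Malaysian parent cannot be told apart from a *trans* effect.

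The values are the authors' normalized read counts, in 1 column for each allele of each hybrid. A difference is given as log2(value + 1) in YHL063 minus that in YHL065, and a gene was counted as different at 1 or more in either direction, which is a fold change on that scale and not a test. No *P* value can be had from 1 culture per hybrid. Of 5797 genes, 5330 averaged 100 or more across the 4 columns and were compared, the lowest of them with a mean of 100.25. The 467 others had means of up to 99. The upper quartile was 2010 in all columns, so the depth was read from the steps between values. A value of 100 stood for an estimated 139 reads of the BC187 allele and 137 of the Malaysian allele in YHL063, and for 24.7 and 24.3 reads of these alleles in YHL065. YHL065 was the shallowest of the 3 hybrids. Exact values recurred between genes, since 185 of the 580 genes above 5000 in the BC187 column of YHL063 had exactly the value of another gene, as had 194 of 592 in YHL065. In the Malaysian columns the sharing was wider, at 308 of 591 genes in YHL063 and 265 of 596 in YHL065. The estimated reads add up to more than the uniquely mapped reads that the study lists for each hybrid. Read numbers below are therefore estimates that may differ from a gene's own count. Intervals are 95% limits for the counting of the estimated reads only, and may be too narrow.

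A feature of the files touches the low values. In each column, more than 200 genes carried values that climbed steadily with the gene's place in the table, from near 0 at its start to 568 at its end for the BC187 allele in YHL063 and 616 in YHL065. Of 71 genes whose sequence is almost wholly repeated in the reference genome, and which uniquely mapping reads could not measure, 64 lay on this line in the BC187 column of YHL063 and 65 in that of YHL065. In all, 325 of the 5330 compared genes (6.1%) lay on it in at least 1 of the 4 columns. Genes on the line are described below only where this is stated, and counts are given with and without them. The 10 highest genes of each column also shared a single value, 292197 for the BC187 allele in YHL063 and 388493 in YHL065.

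**Figure D1:**
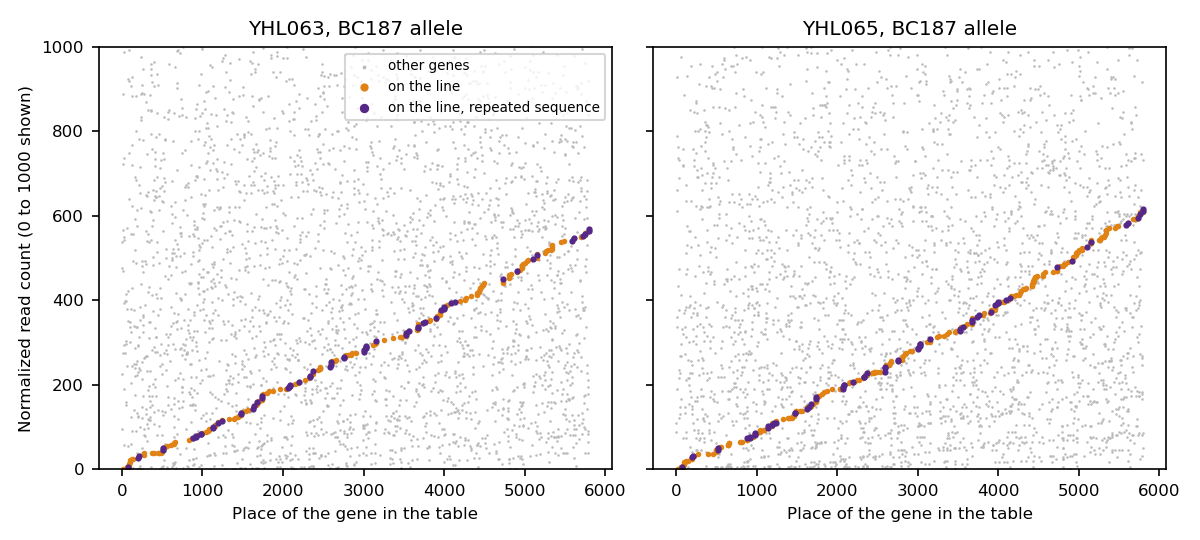
Normalized read count (vertical axis, 0 to 1000 shown) against the place of the gene in the table (horizontal axis) for the BC187 allele in YHL063 (left) and in YHL065 (right). Grey points are other genes, orange points are genes on the rising line and purple points are those among them with repeated sequence; the line ends at 568 in YHL063 and at 616 in YHL065.

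The BC187 allele had nearly the same expression next to either Malaysian genome at most genes. Its median difference was 0.03, and 4535 genes (85.1%) differed by less than 0.5 in either direction. It was higher in YHL063 at 109 of the 5330 genes (2.05%) and lower at 23 (0.432%), or different at 132 in all (2.48%). Without the genes on the line, it was higher at 88 of 5005 (1.76%) and lower at 19 (0.38%). The Malaysian allele was higher at 130 genes (2.44%) and lower at 42 (0.788%), 172 in all (3.23%), or at 92 (1.84%) and 37 (0.739%) without the genes on the line. Higher calls outnumbered lower ones for both alleles.

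The Malaysian column often moved with the BC187 column. Of the 88 genes off the line with a higher BC187 allele in YHL063, the Malaysian allele had a difference of the same sign at 80 and was itself past 1 at 31, with a median of 0.80. Of the 19 with a lower BC187 allele, the Malaysian allele had the same sign at 15 and was past 1 at 9. Both alleles were thus higher at 31 of the 5005 genes (0.619%) and lower at 9 (0.18%). With the genes on the line included, these were 42 of 5330 (0.788%) and 13 (0.244%), 55 in all (1.03%). Across the 5005 genes, the differences of the alleles were related with Pearson's r = 0.43 and Spearman's rho = 0.62. Genes are not independent replicates, and the alleles of a hybrid share their culture and library, so these describe the columns only. When all compared genes were ordered by mean level and divided into 5 groups, Spearman's rho was 0.38 in the lowest group and 0.76 in the highest. The fewer reads behind low values move with that order, and their part in it was not tested.

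**Figure D2:**
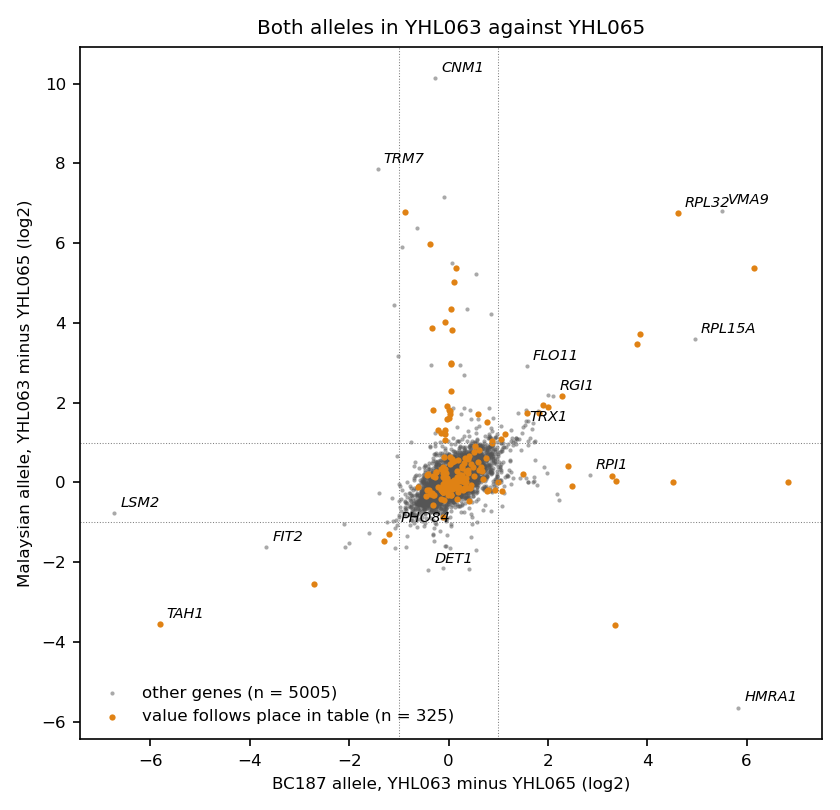
Difference of the Malaysian allele (vertical axis, log2) against that of the BC187 allele (horizontal axis, log2), YHL063 minus YHL065, for each compared gene; dotted lines mark 1 and -1. Grey points are the 5005 genes off the rising line and orange points the 325 on it. Most genes lie near 0, the cloud runs along the diagonal, and columns of points near 0 on the horizontal axis are genes at which the Malaysian allele alone differed.

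*FIT2* had the largest difference among the genes off the line that were lower in YHL063 for both alleles. It encodes a mannoprotein of the cell wall that helps to hold iron-bearing siderophores, and the iron-sensing activators Aft1 and Aft2 drive it when iron is scarce. The BC187 allele had 158 in YHL063 (interval 138 to 180) and 2018 in YHL065 (1840 to 2200), a difference of -3.67. The Malaysian allele had 136 in YHL063 and 420 in YHL065, a difference of -1.62. YHL065 was thus the high culture for both alleles, and the more so for the BC187 allele. In YHL058 the alleles had 107 (Malaysian) and 101 (RM11-1), close to the values of YHL063. The homozygous Malaysian parents did not differ in this way, with 344 in UWOPS03.461.4 and 365 in UWOPS05.217.3 on the separate scale of the parents' table.

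*FIT2* (YOR382W) lies on chromosome XV at 1059531 to 1059992 of the S288C assembly R64, on the plus strand. The letters GCACCC are the core of the site that Aft1 and Aft2 bind. The window from 250 bases before to 50 bases after the start codon of *FIT2* holds these letters at 2 places, which are shown because *FIT2* leads the genes lower in YHL063. Capitals mark the 6 letters, as GCACCC or, read from the other strand, as GGGTGC. The stretches lie at chrXV:1059281-1059300 and chrXV:1059388-1059417, and the marked letters begin 248 and 131 bases before the start codon.
FIT2, far site: atGCACCCcccctcgccccg
FIT2, near site: acgaatctaactGGGTGCagtataattagc
The letters occur on either strand in 4.2% of the 5792 windows of this kind in R64, and in 2 of the 13 genes lower for both alleles, *FIT2* and *SNX3*, the second of which lies on the rising line. They also occur in 3 of the 42 genes higher for both alleles (7.14%), so they were not particular to the lower genes. The sequence is that of the reference strain, and the hybrids' own promoters were not read.

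As a group, the rest of the iron regulon did not follow *FIT2*, though both alleles of *FIT3* were below 0. Of its 32 listed genes, 30 were compared, with median differences of 0.02 for the BC187 allele and -0.02 for the Malaysian allele, against 0.03 and 0.02 over all compared genes. Both alleles were above 0 at 12 of them and below 0 at 12. *FIT3*, a neighbour of *FIT2* with a like product, had 4207 in YHL063 and 5815 in YHL065 for the BC187 allele, a difference of -0.47. Its Malaysian allele had 2232 in YHL063 and 4547 in YHL065, a difference of -1.03 that passed the fold used here. The siderophore transporter *SIT1* had 5486 in YHL063 and 5515 in YHL065 for the BC187 allele, and 4074 and 4263 for the Malaysian allele in these hybrids. The multicopper oxidase *FET3*, which oxidizes iron for uptake, differed by -0.11 for the BC187 allele and 0.07 for the Malaysian allele. The vacuolar iron importer *CCC1* had 1235 in YHL063 and 786 in YHL065 for the BC187 allele, a difference of 0.65, and 1521 and 951 for the Malaysian allele, a difference of 0.68. Of the 30 compared iron genes, only *FIT2* and *FIT3* were past 1 in either allele.

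*PHO84* encodes the high-affinity phosphate transporter of the plasma membrane, a target of the activator Pho4. The BC187 allele had 20072 in YHL063 and 42631 in YHL065, a difference of -1.09. The Malaysian allele had 16071 in YHL063 and 35723 in YHL065, a difference of -1.15. Both alleles were lower in YHL063 by nearly the same amount, so the allelic ratio hardly moved. *RPA135* also had exactly 42631 for the BC187 allele in YHL065. That value is thus a shared one, and the size of the BC187 difference and of the ratio is uncertain. The value of the Malaysian parents ran the same way, with 12106 in UWOPS03.461.4 and 29156 in UWOPS05.217.3, a difference of -1.27. Of 17 listed phosphate genes, 15 were compared, and their medians were -0.07 for the BC187 allele and -0.08 for the Malaysian allele. The acid phosphatase *PHO5* differed by -0.36 and -0.45 and *SPL2*, a small protein that holds back low-affinity phosphate uptake, by -0.42 and -0.50 for these alleles. The polyphosphate polymerase subunit *VTC4* differed by -0.14 and -0.04. *PHM6* was lower for both alleles too, but its values in YHL063 lay on the rising line.

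*RGI1*, *TRX1*, *SIS1* and *GAC1* were higher in YHL063 for both alleles. *RGI1*, a small protein induced in respiratory growth, had 197 in YHL063 (175 to 222) and 45 in YHL065 (22.3 to 79.8) for the BC187 allele, a difference of 2.11. Its Malaysian allele had 170 in YHL063 and 37 in YHL065, a difference of 2.17, and the 2 values of YHL065 rest on an estimated 11 and 9 reads. The values 137 (Malaysian allele) and 138 (RM11-1 allele) in YHL058 were near those of YHL063. *TRX1*, a thioredoxin that keeps protein thiols reduced, had 7389 in YHL063 and 2606 in YHL065 for the BC187 allele. Its Malaysian allele had 7225 in YHL063 and 2747 in YHL065, a difference of 1.39. *SIS1*, a J-domain partner of the Hsp70 chaperones, had 625 in YHL063 and 235 in YHL065 for the BC187 allele, and 702 in YHL063 and 210 in YHL065 for the Malaysian allele. *GAC1*, a regulatory subunit that directs protein phosphatase 1 to glycogen synthase, had 258 in YHL063 and 77 in YHL065 for the BC187 allele, and 144 in YHL063 and 70 in YHL065 for the Malaysian allele. The values of *GAC1* in YHL065 rest on an estimated 19 (BC187) and 17 (Malaysian) reads. At *GAC1* the alleles also lay apart within YHL063, with a log2 ratio of -0.84. The lists that hold *TRX1* and *SIS1* lay near 0 or slightly above: of 22 compared genes of oxidative stress and redox, *TRX1* alone was past 1 for both alleles, with medians of -0.00 for the BC187 allele and 0.05 for the Malaysian allele, and of 20 chaperones *SIS1* alone was, with medians of 0.15 and 0.17 for these alleles.

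The stress activators Msn2 and Msn4 bind the letters AGGGG, and the window before *RGI1* (chromosome V, plus strand, R64) holds them at 2 places, shown because *RGI1* was higher in both alleles by the same amount. The stretches lie at chrV:291820-291848 and chrV:291836-291864, and the letters in capitals begin 234 and 218 bases before the start codon.
RGI1, far site: atatagaatgaaAGGGGcagcgttcttaa
RGI1, near site: gcagcgttcttaAGGGGtattgctgggtg
The letters AGGGG or CCCCT occur in 21.6% of all windows, in 9 of the 42 genes higher for both alleles (21.4%) and in 3 of the 13 lower ones (23.1%), so their share was near that of all genes. Of the 21 compared genes in the list of Msn2/Msn4 targets, the BC187 allele had a median of 0.00 and the Malaysian allele one of 0.07, and *GAC1* alone was past 1 for both alleles. The Malaysian difference of *GAC1* was 1.03, and fell to 0.94 with a pseudocount of 10.

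The other genes off the line that the naming rule picked as higher for both alleles were *RPL15A*, *FLO11* and YKL096C-B. *RPL15A* encodes a protein of the large ribosomal subunit. Its BC187 allele had 3814 in YHL063 and 122 in YHL065, and its Malaysian allele had 1248 in YHL063 and 103 in YHL065. Both hybrids stood far below YHL058, where the alleles had 136970 (Malaysian) and 348369 (RM11-1), and 3.29% of the windows of *RPL15A* occur elsewhere in the genome. *FLO11*, a cell-surface flocculin for adhesion and biofilms, had 18604 in YHL063 and 6261 in YHL065 for the BC187 allele, a difference of 1.57. Its Malaysian allele had 166 in YHL063 and 21 in YHL065, a difference of 2.92, where 21 stands for 5 reads. In YHL058 the alleles of *FLO11* had 93 (Malaysian) and 20 (RM11-1), so the Malaysian allele was low in every hybrid. The Malaysian parents differed the same way at *FLO11*, with 261985 in UWOPS03.461.4 and 21506 in UWOPS05.217.3, a difference of 3.61, and 15.41% of its windows are repeated. *ACT1* also had exactly 261985 in UWOPS03.461.4, so that value is a shared one and the size of the difference is uncertain. YKL096C-B, an open reading frame without a known role, had 35379 in YHL063 and 8790 in YHL065 for the BC187 allele, and 30209 in YHL063 and 6627 in YHL065 for the Malaysian allele.

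Genes of high expression made up most of the others lower for both alleles. *RPS22A*, *RPS11B*, *RPS26A* and *RPS21B*, all proteins of the small ribosomal subunit, were each lower in YHL063. The values of *RPS22A* in YHL065, 388493 (BC187) and 336140 (Malaysian), are the highest of their columns, which 10 genes share. *RPS11B* and *RPS26A* had near-equal values for the BC187 allele in YHL065, 162871 and 163090. *RPS21B* had 29635 in YHL063 and 72510 in YHL065 for the BC187 allele, a difference of -1.29, and 28201 in YHL063 and 77525 in YHL065 for the Malaysian allele, one of -1.46. *ACT1*, the actin gene, had 90224 in YHL063 and 388493 in YHL065 for the BC187 allele, where the higher value is the one that 10 genes share. Its Malaysian allele had 79873 in YHL063 and 165524 in YHL065. *CYB5*, cytochrome b5, which passes electrons to enzymes of sterol and lipid synthesis, had 16152 in YHL063 and 33234 in YHL065 for the BC187 allele, a difference of -1.04. The Malaysian allele of *CYB5* had 17201 in YHL063 and 36065 in YHL065, a difference of -1.07. *TFC8*, a subunit of the RNA polymerase III factor TFIIIC, was lower as well, with 309 in YHL063 and 652 in YHL065 for the BC187 allele and 247 in YHL063 and 774 in YHL065 for the Malaysian allele.

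**Figure D3:**
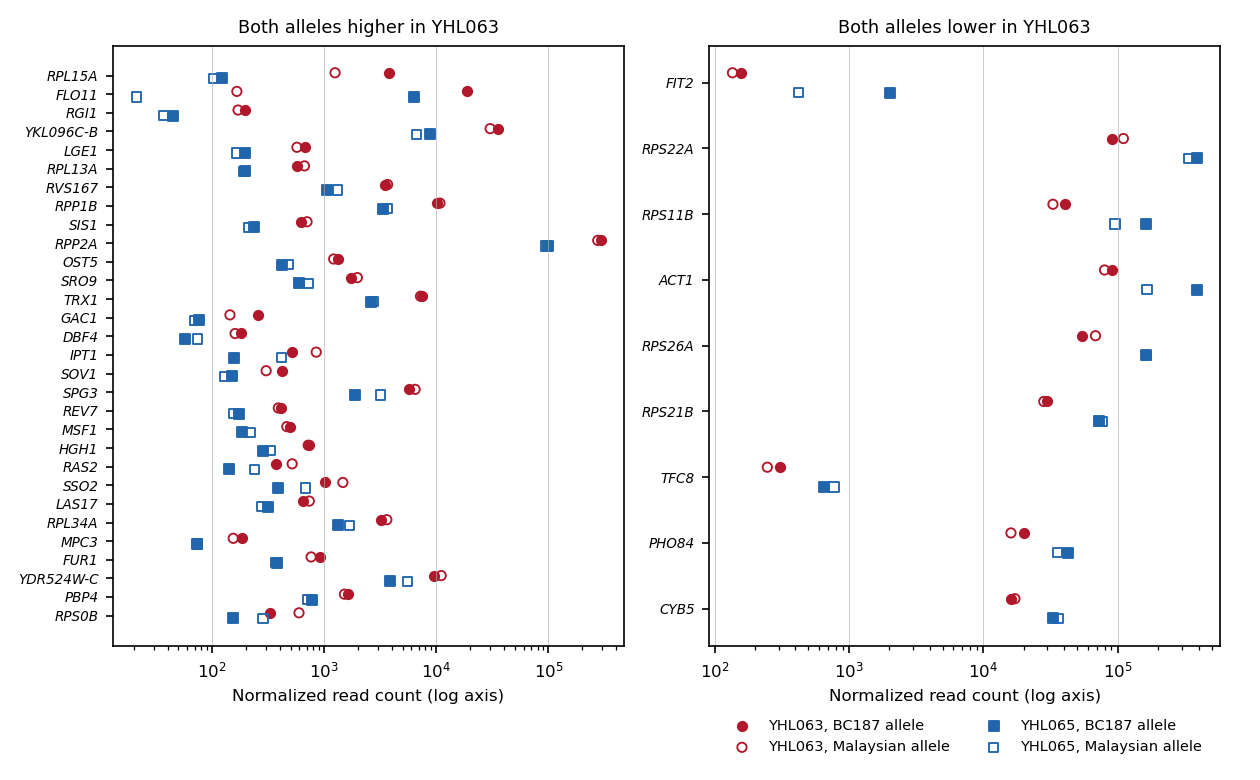
Normalized read counts (horizontal axes, log scale) of the genes off the rising line at which both alleles were higher (left, 30 genes with a value of at least 10 in each column) or lower (right, 9 genes) in YHL063. Circles are YHL063, squares YHL065, filled symbols the BC187 allele and open symbols the Malaysian allele; at *FIT2* the BC187 allele had 158 in YHL063 and 2018 in YHL065.

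As groups, most pathways lay near 0, and no list of more than 2 genes had a median past 1. Of 137 listed proteins of the cytosolic ribosome, 132 were compared, with medians of -0.01 for the BC187 allele and 0.04 for the Malaysian allele. Their members spread widely all the same. The BC187 allele was higher at 11 of the 132, where all compared genes had 2.05%, and lower at 4, against 0.432%. The Malaysian allele was higher at 16, against 2.44%, and lower at 9, against 0.788%. Both alleles were higher at 7, against 0.788%, and lower at 4, against 0.244%. *RPP2A* and *RPP1B*, acidic proteins of the ribosomal stalk, were among the higher. The values of *RPP2A* in YHL063, 292197 (BC187) and 275455 (Malaysian), are the highest of their columns, which 10 genes share. *RPP1B* had 10204 in YHL063 and 3343 in YHL065 for the BC187 allele, a difference of 1.61, and 10769 in YHL063 and 3690 in YHL065 for the Malaysian allele, one of 1.54. None of the 70 compared proteins of the mitochondrial ribosome was past 1 in either allele, and their medians were 0.07 for both alleles. Many cytosolic ribosomal genes are pairs of near-identical copies whose reads the mapping could divide, so their single values are uncertain.

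The position of glycolytic genes depended on the scaling. Of 20 compared, both alleles were below 0 at 13 and above 0 at 4, and the medians were -0.31 for the BC187 allele and -0.28 for the Malaysian allele. After quantile normalization of the columns both medians were 0.00. Among them, *FBA1*, *ENO2*, *TDH3* and *PDC1* stood at the shared highest value of every one of the 4 columns, so their differences are only that of these ceilings, -0.41 and -0.29. Phosphoglucose isomerase, *PGI1*, which was below the ceiling, had 53424 in YHL063 and 72632 in YHL065 for the BC187 allele, a difference of -0.44, and one of -0.39 for the Malaysian allele. *GPM1* (phosphoglycerate mutase) and *PGK1* (phosphoglycerate kinase) were past -1 for the Malaysian allele alone, at -1.61 and -1.04. High values below the ceiling also lay in near-equal groups. For the Malaysian allele, *PGK1*, *ACT1* and *RPL8B* had 80113, 79873 and 79586 in YHL063. In YHL065 they had 164668, 165524 and 163663. Single differences of such high genes are therefore uncertain. The 11 compared genes of the Ehrlich pathway, which turns amino acids into fusel alcohols and their esters, had medians of -0.30 for the BC187 allele and -0.16 for the Malaysian allele, with none past 1. Ergosterol genes had medians of -0.17 and -0.15 over 27 genes, and *CYB5* alone was past 1.

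Histone genes lay mostly above 0. Both alleles were above 0 at 9 of the 11 compared, with medians of 0.23 for the BC187 allele and 0.41 for the Malaysian allele. *HTB2*, a histone H2B gene, had 7994 in YHL063 and 4458 in YHL065 for the BC187 allele, a difference of 0.84. The Malaysian allele of *HTB2* had 7187 in YHL063 and 3345 in YHL065, a difference of 1.10, the only one of the group past 1. The linker histone gene *HHO1* differed by 0.84 and 0.90. Among the chaperones, *KAR2*, the Hsp70 of the endoplasmic reticulum, had 29908 in YHL063 and 14443 in YHL065 for the BC187 allele, a difference of 1.05, and 30009 in YHL063 and 15050 in YHL065 for the Malaysian allele, one of 1.00 that fell just short of the threshold. Genes of mating and of haploid cells, many of which MATa/alpha diploids repress, had none past 1 among 15 compared, with medians of -0.07 and -0.12. Both alleles were below 0 at 9 of the 15 and above 0 at 2. Over the 12 off the line, the medians were -0.27 for the BC187 allele and -0.21 for the Malaysian allele. After quantile normalization the medians were -0.25 and -0.30 for these alleles. The pheromone-response regulator *KAR4* differed most among the 15, by -0.78 for the BC187 allele and -0.83 for the Malaysian allele.

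**Figure D4:**
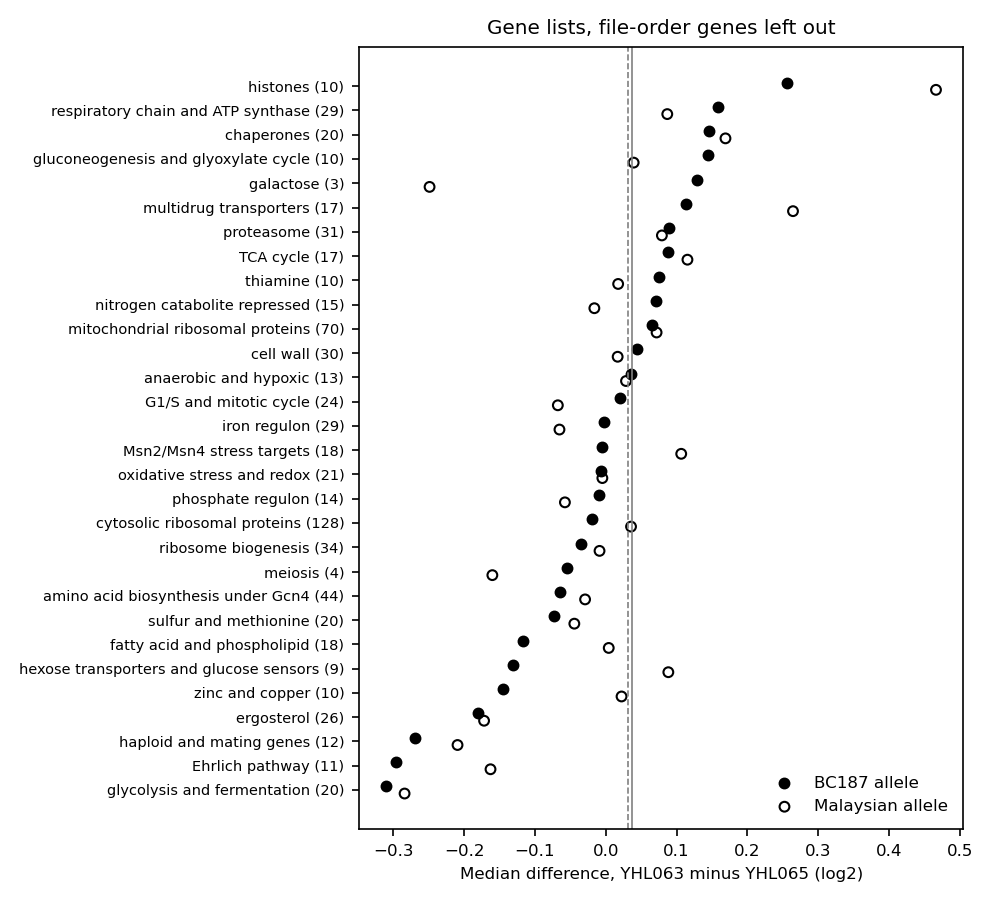
Median difference, YHL063 minus YHL065 (horizontal axis, log2), for each gene list of at least 3 compared genes, with the number compared off the rising line; filled circles are the BC187 allele and open circles the Malaysian allele. The solid and dashed vertical lines are the medians over all 5005 genes, 0.04 for the BC187 allele and 0.03 for the Malaysian allele; among the lists shown, glycolysis lies lowest for the BC187 allele and histones highest for both, and the 2 flocculin genes, with medians of 0.99 and 1.81, are not drawn.

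At other genes the BC187 allele was past 1 while the Malaysian allele differed by less than 0.5. With at least 10 in each column, the BC187 allele alone was higher at 41 genes, 34 of them off the line, and lower at 2. The DEAD-box RNA helicase gene *DBP2* had 62397 in YHL063 and 15740 in YHL065 for the BC187 allele, a difference of 1.99, while its Malaysian allele had 22629 in YHL063 and 19177 in YHL065, one of 0.24. *CIS3*, a mannoprotein of the cell wall, had 5050 in YHL063 and 1540 in YHL065 for the BC187 allele, a difference of 1.71, and one of 0.14 for the Malaysian allele. The putative regulator *RPI1* had 92 in YHL063 (76.6 to 109) and 12 in YHL065 (2.51 to 35.5) for the BC187 allele, and 209 in YHL063 and 185 in YHL065 for the Malaysian allele. These genes were named after their values were seen, since the rule named only genes on the line as higher. The lower genes were *YRB30*, a Ran-binding protein, with 444 in YHL063 and 1171 in YHL065, and *GUS1*, the glutamyl-tRNA synthetase, with 45046 in YHL063 and 99037 in YHL065. The count of reads for a BC187 allele depends on the sites at which it differs from the Malaysian allele it is paired with. Those sites differ between the hybrids, are not in the files used here, and their part in these values was not tested.

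By the same limits, the Malaysian allele alone was higher at 46 genes, 26 of them off the line, and lower at 20, all off the line. Here the Malaysian alleles come from different strains, unlike the BC187 allele. *SAM4*, which uses S-adenosylmethionine to turn homocysteine into methionine, had 6700 in YHL063 and 148 in YHL065 for the Malaysian allele, and 81 in YHL063 and 77 in YHL065 for the BC187 allele. Among the lower, *DET1* had 354 in YHL063 and 1619 in YHL065 for the Malaysian allele, a difference of -2.19, and 328 in YHL063 and 434 in YHL065 for the BC187 allele. *IMD2*, an IMP dehydrogenase for GTP synthesis, had 201 in YHL063 and 902 in YHL065 for the Malaysian allele, a difference of -2.16, and 3952 in YHL063 and 2950 in YHL065 for the BC187 allele. Of the windows of *SAM4* 12.63% and of those of *IMD2* 9.3% are repeated, so their reads may be divided with a copy. *YOS1*, of vesicle transport between endoplasmic reticulum and Golgi, had 41 in YHL063 (30.9 to 53) and 185 in YHL065 (135 to 248) for the Malaysian allele, and 260 in YHL063 and 280 in YHL065 for the BC187 allele.

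The allelic ratio, Malaysian over BC187, had a median absolute difference between the hybrids of 0.164, against 0.207 for the BC187 allele and 0.211 for the Malaysian allele. Its SD over genes was not smaller, at 0.56 against 0.47 for the BC187 allele and 0.56 for the Malaysian allele. It was higher in YHL063 at 67 genes (1.26%) and lower at 66 (1.24%), 133 in all (2.5%), or at 41 of 5005 (0.819%) and 56 (1.12%) without the genes on the line.

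In a single stretch of the genome, neighbouring genes had almost no reads of the Malaysian allele in YHL065. The stretch holds 7 adjacent genes on chromosome II, at 364787 to 375690 of R64 (10.9 kb), and was found after the values were seen, as the only run of neighbours with ratios that differed by at least 2 in the same direction. They are *TRM7*, a tRNA ribose methyltransferase, YBR062C, *CNM1*, a protein of contacts between mitochondria and nucleus, *ECM2*, a splicing factor, *NRG2*, a repressor of glucose-repressed genes, *TIP1*, a mannoprotein of the cell wall, and *BAP2*, a permease for branched-chain amino acids. The Malaysian allele of *TRM7* had 1153 in YHL063 and 4 in YHL065, and its BC187 allele 1203 in YHL063 and 3238 in YHL065. The Malaysian allele of *CNM1* had 1121 in YHL063 and 0 in YHL065, at least 90.7-fold higher in YHL063 against a floor of 3 reads. At *BAP2* the Malaysian allele had 3302 in YHL063 and 29 in YHL065, and the BC187 allele 5714 in YHL063 and 10415 in YHL065. In each of the 7 genes the Malaysian allele was near 0 in YHL065 alone.

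Over the 7 genes, the Malaysian allele gave 41.4% of the reads in YHL063 (9147 of 22080, Wilson interval 40.8 to 42.1%) and 0.307% in YHL065 (13 of 4231, 0.18 to 0.525%). In YHL058, which shares the Malaysian parent of YHL063, the share was 45.4%. The genes just outside were shared between the alleles in YHL065 as in YHL063. *ORC2*, a subunit of the origin recognition complex on the left, had 805 in YHL063 and 853 in YHL065 for the Malaysian allele. The amino acid permease gene *TAT1* on the right had 1563 in YHL063 and 1162 in YHL065 for the Malaysian allele. Over 10 flanking genes, the Malaysian share of the values in YHL065 was between 23.4 and 55.7%. The BC187 allele of the 7 genes had a median difference of -0.87, so it was higher in YHL065 at most of them. The sum of both alleles differed by a median of -0.08, with a range from -0.46 to 1.55. The homozygous parents differed by between -0.33 and 0.72 at these genes, and UWOPS05.217.3 itself had values between 382 and 4596 there. The value of 29 at *BAP2* lay on the rising line; the 6 others were 0 to 8, off it. What set the Malaysian reads of this stretch near 0 in YHL065 was not tested.

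**Figure D5:**
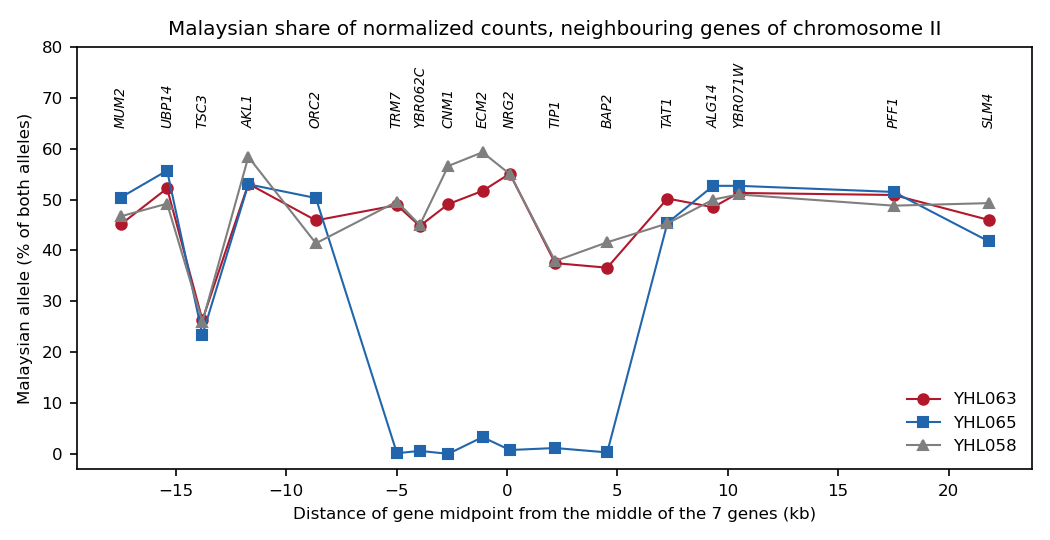
Malaysian allele as a percentage of both alleles' normalized counts (vertical axis) at 7 adjacent genes of chromosome II and 10 flanking genes, against the distance of each gene's midpoint from the middle of the stretch (horizontal axis, kb). Red circles are YHL063, blue squares YHL065 and grey triangles YHL058; within the stretch YHL065 lies between 0 and 3.28%, YHL063 between 36.6 and 55.1% and YHL058 between 37.9 and 59.3%.

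Single genes elsewhere also had an allele near 0 in a single hybrid. *VMA9*, a small subunit of the vacuolar proton pump, had 226 in YHL063 and 4 in YHL065 for the BC187 allele, and 563 in YHL063 and 4 in YHL065 for the Malaysian allele. Each value of YHL065 there is 1 read, with an upper limit of 22.6 for the BC187 allele and 22.9 for the Malaysian allele. *LSM2*, of the Lsm ring that binds RNA ends, had 1 in YHL063 and 211 in YHL065 for the BC187 allele, and 161 in YHL063 and 276 in YHL065 for the Malaysian allele. *HBN1*, related to bacterial nitroreductases, had 266 in YHL063 and 12 in YHL065 for the Malaysian allele, and 835 in YHL063 and 644 in YHL065 for the BC187 allele. *HMRA1*, the silent copy of the mating-type gene a1, had 513 in YHL063 and 8 in YHL065 for the BC187 allele, and 12 in YHL063 and 651 in YHL065 for the Malaysian allele, the reverse pattern. MATa/alpha cells also carry a1 at the mating-type locus, and whether its reads were counted here was not tested. *LYS20*, a homocitrate synthase of lysine synthesis, had 117 in YHL063 and 12 in YHL065 for the Malaysian allele, and 1008 in YHL063 and 2026 in YHL065 for the BC187 allele. Its Malaysian allele had 1421 in YHL058, so the value of YHL063 was itself low, and 24.41% of its windows are repeated. In YHL058 the Malaysian allele had 613 at *VMA9* and 224 at *HBN1*, and *VMA9* was the single gene off the line near 0 for both alleles of a hybrid.

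Most genes in each group below were not past 1 between the homozygous Malaysian parents, as was true of all compared genes. Of 5323 genes with a mean of at least 100 in both tables, UWOPS03.461.4 was higher than UWOPS05.217.3 at 70 (1.32%) and lower at 38 (0.714%). Off the line it was higher at 60 of 4981 (1.2%) and lower at 35 (0.703%). Of the 31 genes off the line at which both alleles were higher in YHL063, 2 were also past 1 in the parents, *FLO11* and *VMA9*, and none was past 1 the other way. Of the 9 lower ones, *PHO84* alone was past -1 in the parents. At the 27 genes off the line with a higher Malaysian allele alone, counted here with no minimum in each column, none was past 1 in the parents in either direction. Of the 20 with a lower Malaysian allele alone, 2 were past -1, *SPO21*, a protein of the meiotic spindle pole body, at -1.26 and YMR046C at -1.70. Of the 34 genes off the line with a higher BC187 allele alone, 3 were past 1 in the parents and 2 past -1. Calls in the parents were more frequent than over all genes in the groups that held any, but rest on few genes. The table of the parents was normalized apart from that of the hybrids, so only differences within a table were set side by side.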

How the data were processed

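RNA-seq values of 8 strains were used, with 1 culture of each. According to the methods, the authors mapped reads with Bowtie (0.12.7 in the submitters' processing notes) to strain genomes amended with SNPs, for a hybrid to the joined genomes of its parents. They kept unique matches without mismatches, summed them per gene, and normalized them with EDASeq for GC content and upper quartile. The deposited values are thus a score in the unit of normalized read counts, rounded to whole numbers. The genome build is not given in the sources used here. The tables also hold the authors' own fold changes and *P* values, which were not used, and 0 value columns were left unassigned.

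The members and gene lists were chosen with earlier results of these data known. Differences of log2(value + 1) were taken for genes with a mean of at least 100, and counted at 1. With 1 culture per hybrid no test was made; the scripts were checked on simulated data. What 1 read was worth, 0.72 units for the BC187 allele in YHL063 and 4.05 in YHL065, was estimated from the steps between values. Read numbers are thus estimates on the normalized values, and not mapped reads. All values in YHL065 came out within 0.5 units of a whole multiple; in YHL063, where a read is worth less than 1 unit, this holds of any whole number. A sum of 18874974 units (YHL063) and 20966132 units (YHL065) lay in the BC187 columns. Of 5797 identifiers, 5792 were found in R64, which gave symbols, coordinates, 100-base windows occurring more than once, and promoter windows. Both strands were searched for AGGGG (Msn2 and Msn4), GCACCC (Aft1 and Aft2), CACGTG (Pho4, in 2.95% of windows), TGACTC (Gcn4, in 8.13%) and GATGAG (promoters of ribosome biogenesis, in 20.3%); matches of AGGGG can abut those of GCACCC. Genes on the line were those on the longest climbing chain of values through the repeated genes. Named genes were up to 10 per direction for both alleles and 3 per direction for an allele alone, by the size of the mean difference (for an allele alone, its own) and with at least 10 in each column, and up to 4 per list past 1 for both. Any other gene was picked with its values known. A gene that the rule named is not reported here.

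Other pseudocounts, filters, scalings and a fold threshold of 2 were tried; leaving out the genes on the line and the 30 highest genes of each column was added after seeing the data. The scripts ran in Python 3.11.15 (pandas 2.3.3, numpy 2.4.6), with intervals from scipy 1.17.1 and plots from matplotlib 3.10.9.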

Additional observations from a re-analysis of the deposited data

Results flagged for a closer look

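At 2 genes, the alleles lay on opposite sides in the hybrids, with the BC187 allele above in YHL063 and the Malaysian allele above in YHL065. *HMRA1* (YCR097W, chromosome III, 293835 to 294321 of R64), the silent mating-type copy of a1, had a log2 ratio of Malaysian to BC187 of -5.31 in YHL063 and 6.18 in YHL065, a difference of -11.48. The Malaysian allele gave 2.19% of 731 reads in YHL063 (Wilson interval 1.35 to 3.53%) and 98.8% of 160 reads in YHL065 (95.6 to 99.7%). In YHL058 it gave 98.0% of 545 reads. In R64, 0.0% of the windows of *HMRA1* are repeated. The hybrids are MATa/alpha and carry a1 at the mating-type locus as well, whose reads may be counted here. The study's strain list gives RM11-1b, the wine/European parent of YHL058, as MATalpha, so MATa in YHL058 came from UWOPS03.461.4. For YHL063 and YHL065, neither the labels nor that list says which parent gave MATa. The part of the MATa parent in these shares was not tested. The short open reading frame YDL159W-A had 68 (Malaysian) and 674 (BC187) in YHL063, against 824 and 65 in YHL065, ratios of -3.29 and 3.64 and a difference of -6.93. Its low values, 68 in YHL063 and 65 in YHL065, lay on the rising line and may not be measurements of the gene. Neither difference was tested, since each hybrid is 1 culture.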

How the results depend on the processing

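With all settings as reported, the BC187 allele was past 1 at 132 genes, the Malaysian allele at 172, both alleles at 55 and the allelic ratio at 133. Without a filter the BC187 allele was past 1 at 204 genes and the ratio at 239. With a mean of at least 10, the ratio was past 1 at 213 genes. With a mean of at least 1000, the counts were 34 for the BC187 allele, 47 for the Malaysian allele, 19 for both alleles and 27 for the ratio. With a value of at least 100 in each column, the ratio was past 1 at 73 genes. At a fold threshold of 2, the counts were 28, 42, 11 and 43 in the same order of quantities. The filter also moved the split of calls, since the share of higher calls was 61.8% for the BC187 allele with a mean of at least 1000, against 82.6% as reported. For the Malaysian allele this share was 55.3% with that filter, against 75.6%, and for both alleles 63.2%, against 76.4%. For the ratio it was 69.8% at a fold threshold of 2, against 50.4%. The other 32 of these 44 counts stayed within 1.5 times of the reported ones. Of 554 recomputed values of named genes, 2 moved, both at YAR068W, which lies on the rising line, and none reversed. No paired analysis was possible because each hybrid has 1 culture. YHL065 has the fewest reads, so a value under 100 there rests on fewer than 25 reads, and differences of low genes are limited by counting. Culture, library and Malaysian parent cannot be told apart.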

Other observations

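The BC187 allele leaned slightly with level, with a median difference of 0.12 in the lowest of 5 equal groups of mean level and -0.09 in the highest. The median absolute difference in these groups was 0.25 and 0.221, where counting of reads alone would give 0.148 and 0.0285. For the UWOPS03.461.4 allele, YHL063 minus YHL058, the median absolute differences were 0.253 and 0.199 in them. No chromosome stood apart as a whole, since the medians of the 16 chromosomes lay between -0.06 and 0.10 for both alleles. Of 178 genes off the rising line within 30 kb of a chromosome end, the Malaysian allele was past 1 at 9 (5.06%), against 120 of 4826 inner genes (2.49%), and the BC187 allele at 4 (2.25%), against 103 (2.13%). Short genes held more calls, with the BC187 allele past 1 at 35 genes in the shortest of 5 equal groups and at 15 to 21 in the others, all off the line.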
